A study of Mus musculus with 20 samples.

Results

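Ucp1 and 6 further genes of brown fat heat production, Cidea, Ppargc1a, Prdm16, Elovl3, Dio2 and Cpt1b, were followed through mouse development from E7.5 to E18.5. Every probe set annotated to exactly 1 gene, where that gene was on this list, was taken. There were 15 such probe sets, covering 6 of the 7 listed genes, of 18194 genes with a single-gene probe set on the array. Ucp1, Cidea and Elovl3 had 1 probe set each, Ppargc1a had 5, Prdm16 had 4 and Dio2 had 3. Cpt1b had none, because its only probe set lists 3 gene symbols, so Cpt1b was not measured on its own.

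The samples were whole wild-type C57BL/6 mouse embryos without the amnion, of mixed sex, kept specific-pathogen-free and given no treatment, collected at 8 stages by embryonic day (E), daily up to E10.5 and every other day from E12.5. Each of the 20 arrays (Affymetrix Mouse Genome 430 2.0, 1 colour) was hybridised with pooled total RNA of several embryos. Each stage up to E10.5 had 3 arrays and each later stage had 2. The labels describe the arrays of a stage as biological replications, so p-values measure the spread between such pools and not between single embryos. The small number of arrays per stage limits the precision of every value.

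Brown fat burns fatty acids to make heat. Its mitochondria carry Ucp1 in the inner membrane, which lets protons return without making ATP, and newborn mice rely on this heat. Noradrenaline acting on β-adrenergic receptors raises cAMP, which switches on Ucp1, Ppargc1a and Dio2 in mature brown fat cells. In the mouse embryo the tissue arises from mesoderm of the back and fills with lipid late in gestation. Several of the 7 genes also work elsewhere: Ppargc1a in muscle, heart, brain and liver, Prdm16 in brain, face and blood stem cells, Elovl3 in skin and liver, Dio2 in brain and pituitary, and Cpt1b in muscle and heart. In RNA of a whole embryo, more cells of a type and more RNA per cell cannot be told apart.

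The 250 bases before the annotated start of Ucp1 and of Dio2 are shown because both genes are known targets of cAMP signalling. They differ in the short motifs they hold. Both come from RefSeq on build GRCm38.p6, 5′ to 3′ on the strand of the gene. Ucp1 lies at chr8:83290098-83290347 on the plus strand and Dio2 at chr12:90739039-90739288 on the minus strand. Capitals mark the motifs found.
Ucp1: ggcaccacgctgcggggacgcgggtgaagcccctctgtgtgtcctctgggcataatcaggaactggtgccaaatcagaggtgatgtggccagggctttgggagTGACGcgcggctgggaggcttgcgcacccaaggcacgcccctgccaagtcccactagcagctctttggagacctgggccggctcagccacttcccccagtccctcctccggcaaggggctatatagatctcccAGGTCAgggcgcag
Dio2: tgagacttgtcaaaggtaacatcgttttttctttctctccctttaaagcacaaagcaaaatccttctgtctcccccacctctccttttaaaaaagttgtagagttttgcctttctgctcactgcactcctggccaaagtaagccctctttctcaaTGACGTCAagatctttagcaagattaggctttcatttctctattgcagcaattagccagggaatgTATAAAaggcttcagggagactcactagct
Both strands were searched for TGACG (core of the cAMP response element), TGACGTCA (the full element, which holds TGACG on both strands), AGGTCA (core of many nuclear receptor sites), TATAAA (the core promoter box) and CCAAT. The Ucp1 window held TGACG with its first base at position -147 from the start and AGGTCA at -14. The Dio2 window held the full TGACGTCA at -95 and TATAAA at -30. Of 32851 RefSeq mouse promoters searched over the same length, 17.8% held TGACG, 14% held AGGTCA, 1.55% held TGACGTCA, 12.4% held TATAAA and 33.8% held CCAAT. The Ppargc1a window held TGACG on the opposite strand at -49, and the Prdm16 window held CCAAT at -98. These matches describe letters only, and no binding was measured here.

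Signals were scaled so that the trimmed mean of every array was 500. The 12 arrays up to E10.5 had medians of 67.2 to 91.1 and the 8 later arrays had medians of 156 to 178. The spiked control dap read 15.4 to 123 in the former set and 1985 to 3013 in the latter. Array set and stage therefore cannot be told apart at the step from E10.5 to E12.5, and the comparisons below lie within a set unless stated. Levels are MAS5 signals, which have no unit, and they were compared between stages of 1 probe set, never between genes. Changes are on the log2(signal + 25.9) scale from limma, which understates the change of dim genes. A gene was called when its Benjamini-Hochberg adjusted p over the 14045 genes tested was under 0.05 and its change at least 2-fold. Only called genes are said to rise or fall.

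Of the 6 genes measured, 5 passed the filter for testing, which asks for a signal over the array median on 2 arrays or more. All 5 were called over the 8 stages by limma's moderated F test, against 67.9% of all genes tested. That test lies across the array sets, so array set and stage cannot be told apart in its calls or in that share. The highest and lowest stage means lay in different sets for Cidea, Ppargc1a and Elovl3, and within 1 set for Ucp1 and Prdm16. Ucp1 and Elovl3 were above the array median on the 2 arrays of E18.5 and on no other array, so they passed the filter only through the stage where they were high. The probe set representing Dio2 was never above the median, at signals of 37.5 to 118, and the gene was not tested. The 5 tested genes followed different courses: Ucp1 appeared at the last stage, Cidea climbed over the last 2 steps, Elovl3 was higher at the end by a small margin, and Prdm16 peaked at mid-gestation.

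**Figure D1:**
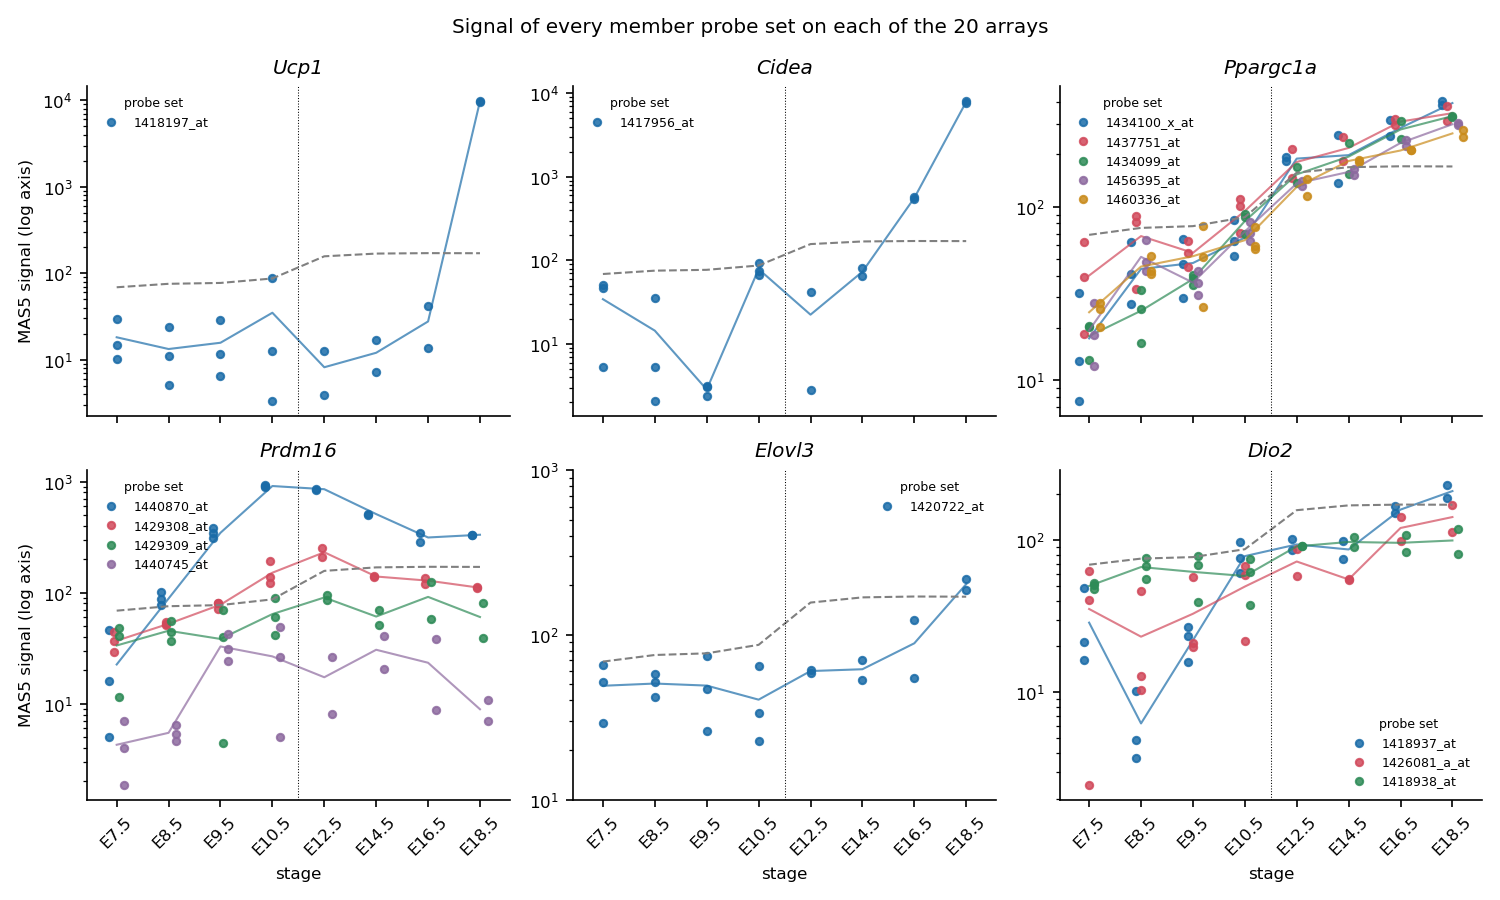
MAS5 signal (log axis) of each single-gene probe set of the 6 measured genes on the 20 arrays, by stage. Points are arrays, coloured lines join stage means, the dashed grey line is the mean array median at each stage and the dotted vertical line separates the array sets. Ucp1 exceeds the median of its own array only at E18.5, where the 2 arrays read 9667 and 9821, while Prdm16 is highest at E10.5 and E12.5.

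Ucp1, the uncoupling protein that defines brown fat, was near the floor of the array through E16.5 and bright at E18.5. Its signals were 14.9, 29.4 and 10.2 at E7.5, then 23.8, 10.9 and 5.11 at E8.5. They were 6.43, 11.6 and 29.1 at E9.5, and 12.6, 88.7 and 3.35 at E10.5. At E12.5 they were 3.88 and 12.48, at E14.5 they were 7.22 and 16.8, and at E16.5 they were 13.5 and 41.8. These 7 stages overlapped one another, except that both E16.5 arrays were above both E12.5 arrays, and 14 of the 20 arrays put Ucp1 below their own 25th percentile. The value of 88.7 at E10.5 came from 1 array, whose 2 partners read 12.6 and 3.35. At E18.5 the signals were 9667 and 9821, a mean of 9744 ± 109 (SD, n = 2), with no overlap with any earlier array.

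From E16.5 to E18.5 Ucp1 rose by 7.56 ± 0.49 (log2, SE; limma adjusted p = 3.9e-09). Because the E16.5 signals lay below the array median, a cautious fold sets the E18.5 level against that median, and Ucp1 was then at least 57.1-fold higher. From E12.5 to E18.5 it rose by 8.18 ± 0.49 (limma adjusted p = 6.39e-11), again from signals under the array median. The step before, from E14.5 to E16.5, gave 0.46 ± 0.49 (limma adjusted p = 0.653). The difference between the last step and the one before it was 7.10 ± 0.85 (limma adjusted p = 7.2e-05). In that difference of steps, which was added after the data were seen, 1 of the 5 tested genes was called higher, against 0.356% of all genes, and 0.783% of all genes were called lower. From E7.5 to E10.5 Ucp1 differed by 0.22 ± 0.40 (limma adjusted p = 0.66). Without either E18.5 array Ucp1 passes the filter no longer. With no filter its last step was 7.58 without replicate 1 and 7.55 without replicate 2, and its difference of steps 7.12 and 7.09.

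Cidea, a lipid droplet protein of brown fat cells, rose over each of the last 2 steps. At E7.5 its signals were 5.36, 50.9 and 46.8, and at E8.5 they were 2.10, 5.28 and 36.0. At E9.5 they were 3.02, 2.41 and 3.12, and at E10.5 they were 66.2, 75.6 and 94.3. The 3 arrays of E10.5 lay above all 9 earlier arrays, yet only 1 of them exceeded its array median. At E12.5 the signals were 42.1 and 2.81, at E14.5 they were 80.9 and 65.6, at E16.5 they were 545 and 573, and at E18.5 they were 7708 and 8095. From E14.5 on, each stage lay above the one before with no overlap.

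Cidea rose by 2.57 ± 0.43 from E14.5 to E16.5 (limma adjusted p = 0.000515) and by 3.76 ± 0.43 from E16.5 to E18.5 (limma adjusted p = 4.63e-06). The mean signal was 14.1-fold higher at E18.5 than at E16.5, with both stages above the array median. From E12.5 to E18.5 Cidea rose by 7.49 ± 0.43 (limma adjusted p = 3.39e-11), and by at least 50.3-fold against the E12.5 array median. The last 2 steps of Cidea did not pass the test of their difference, at 1.19 ± 0.75 (limma adjusted p = 0.694). With a pseudocount 4 times larger that difference was 1.69 (adjusted p = 0.00208), a called value, and over all alternatives its adjusted p ran from 0.00208 to 1.

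Earlier changes of Cidea were small and lay near or under the array median. It rose by 1.86 ± 0.35 from E9.5 to E10.5 (limma adjusted p = 0.000844) and fell by 1.24 ± 0.39 from E10.5 to E12.5 (limma adjusted p = 0.0143), a step that lies across the array sets. The fall turned on 1 array, since without E12.5 replicate 2, which read 2.81, it was not called. From E7.5 to E10.5 Cidea differed by 0.90 ± 0.35 (limma adjusted p = 0.0355), under 2-fold. Without E7.5 replicate 2 the difference was 1.13 and without replicate 3 it was 1.09, and both were called.

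Ppargc1a encodes a coactivator that drives mitochondrial biogenesis and, with nuclear receptors, Ucp1 expression. Its representing probe set was called over the 8 stages, a test across the array sets, but in none of the comparisons of 2 stages made here. Its lowest stage mean was at E7.5 and its highest at E18.5, in different array sets, with 2.54 between them (log2). Its signals were 18.4, 39.4 and 62.6 at E7.5, and 33.7, 87.8 and 81.4 at E8.5. At E9.5 they were 63.5, 44.9 and 54.1, and at E10.5 they were 101, 111 and 70.6. They were 215 and 147 at E12.5, 253 and 183 at E14.5, 297 and 321 at E16.5, and 380 and 311 at E18.5. All 8 later arrays were above all 12 earlier ones, across the array sets, and neighbouring stages overlapped in the rest of the series, except that E10.5 lay above E9.5 and E16.5 above E14.5.

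From E12.5 to E18.5 Ppargc1a differed by 0.86 ± 0.34 (limma adjusted p = 0.0391), which is under 2-fold and was not called. Without E12.5 replicate 1 the difference was 1.10 and was called. The last step gave 0.14 ± 0.34 (limma adjusted p = 0.846), and the difference of the last 2 steps was -0.33 ± 0.59 (limma adjusted p = 0.965). From E7.5 to E10.5 the difference was 0.91 ± 0.28 (limma adjusted p = 0.00828), again under 2-fold. The 5 Ppargc1a probe sets moved together, with Pearson r of 0.927 to 0.961 between pairs over the 20 arrays, which share stages. In a fit of all probe sets their differences from E12.5 to E18.5 ran from 0.86 to 1.00, and 2 of the 5 were called. From E7.5 to E10.5 they ran from 0.83 to 1.31, and 3 of the 5 were called.

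Prdm16 encodes a zinc-finger regulator that commits precursors to brown fat rather than muscle. It rose to a peak at mid-gestation and was lower at E18.5 than at E12.5. At E7.5 its signals were 5.03, 16.1 and 46.5, at E8.5 they were 77.3, 87.6 and 101, at E9.5 they were 344, 384 and 308, and at E10.5 they were 894, 931 and 907. Each of these stages lay wholly above the one before. At E12.5 the signals were 859 and 846, at E14.5 they were 514 and 504, at E16.5 they were 283 and 344, and at E18.5 they were 333 and 330. From E10.5 to E16.5 each stage lay wholly below the one before, and E18.5 lay within the range of E16.5. Of these steps, the one from E10.5 to E12.5 lies across the array sets and gave -0.09 ± 0.23 (limma adjusted p = 0.772).

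On its representing probe set Prdm16 rose at every step of the early set. The rises were 1.33 ± 0.21 to E8.5 (limma adjusted p = 3.43e-05), 1.70 ± 0.21 to E9.5 (6.51e-06) and 1.34 ± 0.21 to E10.5 (0.000126). Over E7.5 to E10.5 it rose by 4.36 ± 0.21 (limma adjusted p = 4.86e-13), or at least 13.2-fold against the array median at E7.5. It fell by 1.30 ± 0.26 from E12.5 to E18.5 (limma adjusted p = 0.000254), to 0.389 of its E12.5 mean. No single step within that span was called, with -0.72 ± 0.26 to E14.5 (limma adjusted p = 0.0843), -0.66 ± 0.26 to E16.5 (0.114) and 0.08 ± 0.26 to E18.5 (0.89). With the mean of all 4 probe sets the fall was 0.74 (adjusted p = 0.0122), under 2-fold. Under the other alternatives tried, leaving out each array included, Prdm16 was called lower.

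The other Prdm16 probe sets were dimmer. One, 1429308_at, tracked the representing one with r = 0.91 and peaked at E12.5 at 231 ± 28.9 (SD, n = 2), with 111 ± 2.25 at E18.5. Its change from E12.5 to E18.5 was -0.91 ± 0.25 (limma adjusted p = 0.00352 over all probe sets tested), under 2-fold. In the early set it gave 0.32 ± 0.20 to E8.5 (limma adjusted p = 0.215), 0.40 ± 0.20 to E9.5 (0.195) and 0.75 ± 0.20 to E10.5 (0.011). None of these steps was called. Over E7.5 to E10.5 it rose by 1.48 ± 0.20 (limma adjusted p = 1.87e-06), beside 4.36 on the representing probe set. The remaining pair, 1429309_at and 1440745_at, failed the filter at signals of 4.40 to 125 and 1.87 to 48.8.

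Elovl3, an elongase of very long chain fatty acids, was higher at E18.5 by a small margin. At E7.5 its signals were 52.1, 29.3 and 65.9, at E8.5 they were 51.9, 58.0 and 42.0, at E9.5 they were 26.1, 74.8 and 46.8, and at E10.5 they were 22.8, 33.6 and 64.9. At E12.5 the signals were 61.5 and 59.1, at E14.5 they were 53.4 and 70.3, at E16.5 they were 55.0 and 123, and at E18.5 they were 219 and 187. Only the E18.5 arrays stood apart from the rest, and the E16.5 arrays differed from each other by more than 2-fold. Elovl3 rose by 1.41 ± 0.38 from E12.5 to E18.5 (limma adjusted p = 0.00393). Against the E12.5 array median this is at least 1.29-fold, so much of the measured difference lay below the median. With a pseudocount 4 times larger the difference was 0.90 and not called. The last step gave 1.06 ± 0.38 (limma adjusted p = 0.0652), which was 1.497 (adjusted p = 0.0395) and called without E16.5 replicate 2, the array at 123, and 0.62 without E16.5 replicate 1. It was called too with only the 8 later arrays (adjusted p = 0.0139) and with the mean of all probe sets (0.0487). From E7.5 to E10.5 the difference was -0.20 ± 0.31 (limma adjusted p = 0.613).

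Dio2, the deiodinase that turns thyroxine into active thyroid hormone, was followed on 1418937_at, the probe set of its 3 that passed the filter. Its signals were 48.2, 21.3 and 16.4 at E7.5, and 10.2, 4.87 and 3.67 at E8.5. At E9.5 they were 23.2, 26.8 and 15.8, and at E10.5 they were 76.5, 97.6 and 60.9. They were 85.9 and 101 at E12.5, 75.04 and 98.2 at E14.5, 150 and 167 at E16.5, and 230 and 189 at E18.5. E16.5 lay above all earlier arrays and E18.5 above E16.5, but only 3 arrays of the 20 exceeded their array median. These were 1 array of E10.5 and 2 of E18.5, so this probe set passed the filter only through stages where it was high. Its rises to those stages are therefore a description. In the fit of 25563 probe sets it was called over the 8 stages, across the array sets (limma adjusted p = 5.76e-08). It rose from E9.5 to E10.5 by 1.12 ± 0.25 (limma adjusted p = 0.00453). From E12.5 to E18.5 the difference was 0.98 ± 0.31 (limma adjusted p = 0.0134), just under 2-fold. The other 2 probe sets failed the filter, so this course of Dio2 rests on 1 of its 3 probe sets. The probe set 1426081_a_at read 2.47 to 171 and correlated with 1418937_at at r = 0.843. It gave 0.36 ± 0.39 from E9.5 to E10.5 and 0.76 ± 0.48 from E12.5 to E18.5. The representing probe set, 1418938_at, correlated at r = 0.563 but was near flat over these spans, at -0.06 ± 0.25 and 0.08 ± 0.30.

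Set together, 3 of the 5 tested genes rose from E12.5 to E18.5 (Ucp1, Cidea and Elovl3), against 15.2% of all genes tested. Ucp1 and Elovl3 entered the test only through their E18.5 signals. The filter thus partly fixed the share of the 5 that rose to E18.5, which is a description only. Prdm16 fell, against 6.44% of all genes. Without either E18.5 array only Cidea was called higher there, because Ucp1 and Elovl3 failed the filter. With no filter all 3 were called without either array. Over the last step 2 of the 5 rose (Ucp1 and Cidea), against 3.52% of all genes called higher and 0.776% called lower. From E14.5 to E16.5 Cidea alone rose, against 3.6% higher and 0.178% lower among all genes. From E12.5 to E14.5 limma called 0 of the 5, with 1 higher and 1 lower at an unadjusted p under 0.05, against 3.28% higher and 0.37% lower among all genes.

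In the early set, Prdm16 alone rose from E7.5 to E10.5, against 16% of all genes called higher and 7.49% lower. That count of 1 became 2 without E7.5 replicate 2 or E10.5 replicate 3, and 3 without E7.5 replicate 3. Prdm16 alone rose from E7.5 to E8.5, against 6.27% higher and 4.93% lower, and from E8.5 to E9.5, against 2.48% higher and 1.68% lower. Prdm16 and Cidea rose from E9.5 to E10.5, against 3.15% higher and 0.513% lower. Across the array sets, from E10.5 to E12.5, limma called 0 genes higher, with 1 at an unadjusted p under 0.05, and Cidea lower, against 10.6% and 2.02% of all genes. The comparisons E18.5 against E12.5 and the last step share the E18.5 arrays, and the steps share stages with their neighbours.

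**Figure D2:**
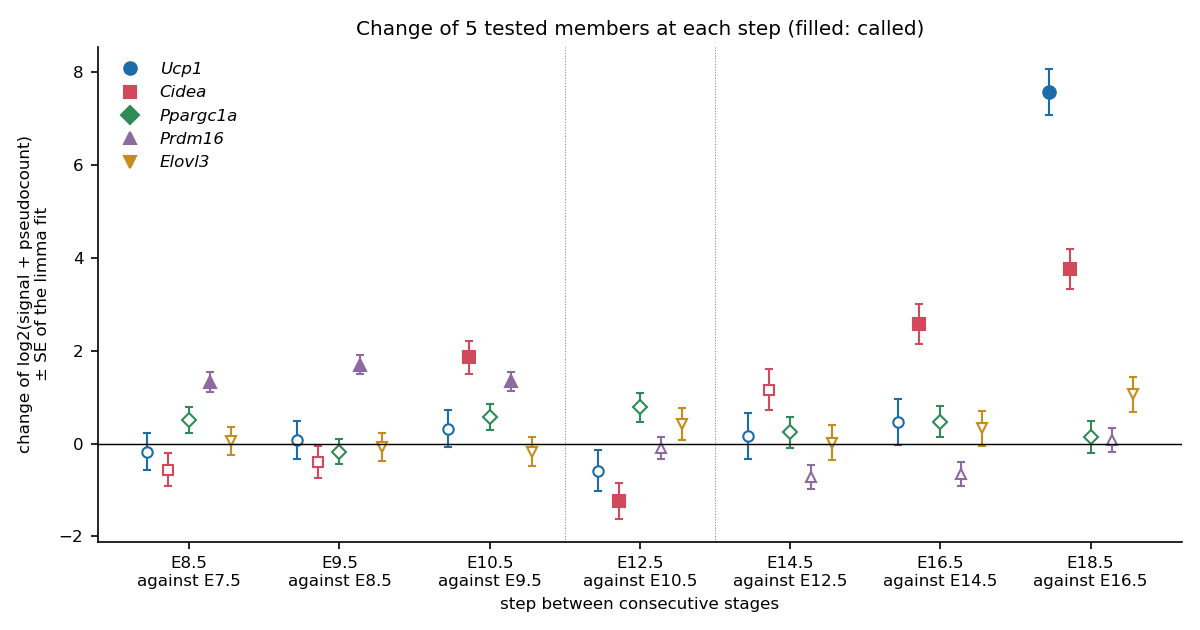
Change between consecutive stages of the 5 tested genes (log2 of signal + 25.9, limma estimate ± SE), with filled points for called steps and dotted lines around the step that lies across the array sets. Ucp1 has 1 called step, the last, at 7.56, while Cidea has called rises at both of the last 2 steps and Prdm16 at each of the first 3.

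Over the 20 arrays Cidea correlated with Ucp1 at r = 0.859, Elovl3 at 0.775, Ppargc1a at 0.499 and Prdm16 at 0.0675. Over the 8 later arrays alone these values were 0.901, 0.930, 0.630 and -0.513. The arrays share stages and array sets, so these values describe the shape of the courses only. Other genes were then ranked by their correlation with Ucp1, leaving out the genes followed here, uncharacterised loci and genes represented by an _x_at probe set. Among those ranked, the genes whose log2 values followed Ucp1 most closely over the 20 arrays included genes of airway, saliva, skin and hair. They were Scgb1a1 (r = 0.993), a secreted protein of airway club cells, Serpina3n (0.974), a protease inhibitor, Bpifa2 (0.969), a salivary protein, Lce1c (0.962) and Lce1m (0.959) of the cornified envelope, Flg (0.959), the filaggrin of skin, Prol1 (0.958) and the hair keratin-associated Krtap6-5 (0.957). Over the 8 later arrays the closest were the pepsinogen Pga5 (0.999), Lce1b (0.998), the fatty acid desaturase Scd1 (0.998), Cyp3a25 (0.996), Scgb1a1 (0.995), Krtap6-2 (0.995), Bpifa2 (0.994) and Cyp4a14 (0.994). As these genes were chosen for this course, their last step is a description: Scgb1a1 was higher by 5.71 ± 0.41, Flg by 6.22 ± 0.35, Pga5 by 5.33 ± 0.31 and Scd1 by 2.58 ± 0.12 (log2, SE). The means of Scd1 were 646, 682, 804 and 4918 over the last 4 stages, so it was well above the array median before the last stage.

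Several general adipocyte genes had called rises before the last step, where Ucp1 had none. Of 18 tested lipid storage and hormone genes, 14 rose from E12.5 to E18.5, against 15.2% of all genes, with a median change of 2.75 beside -0.09 over all genes tested. Adipoq, the hormone adiponectin, read 2.70 and 17.1 at E12.5, 54.1 and 59.7 at E14.5, 1865 and 2142 at E16.5, and 7050 and 7085 at E18.5. Its stages did not overlap from E12.5 on. Adipoq rose by 4.61 ± 0.36 from E14.5 to E16.5 and by 1.81 ± 0.36 over the last step (limma adjusted p = 4.15e-08 and 0.0014). Its last step was smaller than the step before, by 2.80 ± 0.62 (limma adjusted p = 0.0237), the reverse of Ucp1. The list as a whole did not share this. In that difference of steps 3 of the 18 were called higher, as Ucp1 was, against 0.356% of all genes. Adipoq was the 1 called lower, against 0.783%, and the list median was 0.42. At the last step 11 of the 18 rose, against 3.52% of all genes, and at the step before 7 rose, against 3.6%. Fabp4, the fatty acid binding protein of adipocytes, rose at each of the last 3 steps, by 2.17 ± 0.31, 3.13 ± 0.31 and 1.89 ± 0.31. The glycerol-3-phosphate dehydrogenase Gpd1 rose by 5.80 ± 0.40 from E12.5 to E18.5 and the fatty acid transporter Cd36 by 4.43 ± 0.28. Leptin (Lep) was not tested, at a mean of 21.9 ± 19.5 (SD, n = 2) at E18.5.

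Among 24 tested effector genes of brown fat other than the 7, which cover fatty acid oxidation, respiratory chain isoforms and creatine cycling, 17 rose from E12.5 to E18.5, against 15.2% of all genes, and the median change was 1.44. At the last step 8 of the 24 rose, against 3.52% of all genes, with a median of 0.79 beside -0.05 over all genes. Cox8b, a cytochrome c oxidase subunit of brown fat, heart and muscle, rose by 1.63 ± 0.35, 1.99 ± 0.35 and 2.92 ± 0.35 at the last 3 steps. Its mean signal went from 52.0 ± 32.6 at E12.5 to 6956 ± 1090 at E18.5 (SD, n = 2 each). Cox7a1, a related subunit with the same tissues, was flat to E14.5 (0.03 ± 0.21) and rose by 2.00 ± 0.21 and 2.52 ± 0.21 at the last 2 steps. The mitochondrial creatine kinase Ckmt2 rose by 6.66 ± 0.41 from E12.5 to E18.5, and Pdk4, which restrains glucose oxidation, by 3.24 ± 0.41. Otop1, a proton channel listed as a brown fat marker, was not tested, and its means were 28.1 ± 0.8 at E16.5 and 170 ± 35.8 at E18.5 (SD, n = 2).

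**Figure D3:**
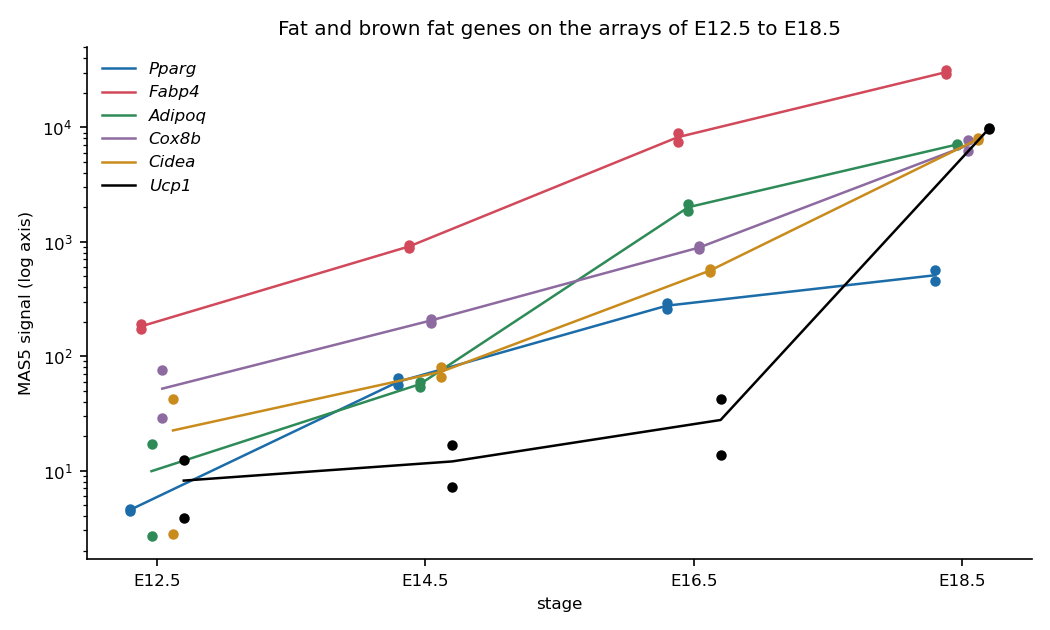
MAS5 signal (log axis) of the adipocyte genes Pparg, Fabp4 and Adipoq and of Cox8b, Cidea and Ucp1 on the 8 later arrays, by stage. Points are arrays and lines join stage means. Ucp1 is flat to E16.5, when Adipoq already averages 2004 and Fabp4 8188.

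The transcription regulators split in direction. Of 28 tested, 9 rose and 5 fell from E12.5 to E18.5, against 15.2% and 6.44% of all genes, with a median change of -0.22. Pparg, the master regulator of fat cell formation, rose by 4.13 ± 0.30 and had its called steps to E14.5 (1.49 ± 0.30) and E16.5 (1.82 ± 0.30), with 0.82 ± 0.30 at the last (limma adjusted p = 0.0762). Cebpa, its partner, rose by 3.10 ± 0.26 with the same called steps. Ppara, a driver of fatty acid oxidation, rose by 3.63 ± 0.45, and of its last 3 steps the last passed the test (1.69 ± 0.45, limma adjusted p = 0.0123). Plac8, which acts upstream of Cebpb in brown fat, rose by 2.95 ± 0.28.

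The 5 regulators that fell were named after their values were seen. They were Zic1 (-2.05 ± 0.20), Foxc2 (-1.24 ± 0.15), Lhx8 (-1.20 ± 0.30), Ebf2 (-1.16 ± 0.25) and Ehmt1 (-1.06 ± 0.14). Ebf2, which marks committed brown precursors, had means of 1653 ± 103 at E12.5 and 729 ± 60.4 at E18.5 (SD, n = 2 each). Like Prdm16, Ebf2 rose before E12.5, by 3.73 ± 0.20 from E7.5 to E10.5, and Zic1, also a factor of the dorsal nervous system, by 7.10 ± 0.16. In that early span 8 of the 28 regulators rose and 3 fell, against 16% and 7.49% of all genes, with a median of 0.53 beside 0.11 over all genes.

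Of 16 tested genes of adrenergic, thyroid, BMP and FGF21 signalling, 2 rose from E12.5 to E18.5, a share near the 15.2% of all genes, and the median was 0.20. The 2 were Klb (1.92 ± 0.32), the FGF21 co-receptor, and Prkaca (1.07 ± 0.24), a catalytic subunit of the cAMP-dependent kinase. At the last step limma called 0 of the 16, with 3 higher and 1 lower at an unadjusted p under 0.05. The β-adrenergic receptors had no single-gene probe set here.

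Paralogues of the 7 genes differed in direction. Of 14 tested, 8 rose and 1 fell from E12.5 to E18.5, against 15.2% and 6.44% of all genes, with a median of 1.06. Cidec, the lipid droplet protein nearest to Cidea in white fat, rose by 4.26 ± 0.41, with called steps of 1.74 ± 0.41 and 2.68 ± 0.41 at the last 2, and Cideb of the liver by 2.21 ± 0.41. Ppargc1b rose by 2.08 ± 0.24, while Pprc1 read -0.69. Whether Ppargc1b and Ppargc1a differ was not tested. Mecom, the closest relative of Prdm16, fell by 1.68 ± 0.31.

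The other elongases gave a mixed picture. Elovl7 rose by 2.60 ± 0.33, Elovl1 by 2.07 ± 0.17, Elovl4 by 1.79 ± 0.22 and Elovl2 by 1.08 ± 0.15, while Elovl5 read 0.01 and Elovl6 -0.11. Ucp3, the muscle uncoupling protein, rose by 1.03 ± 0.34. Of the carnitine palmitoyltransferases, the liver form Cpt1a gave 0.83 (limma adjusted p = 0.00125, under 2-fold) and the neural form Cpt1c -0.47. Dio1 was not tested, and Ucp2 and Dio3 had no single-gene probe set here.

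Markers of skeletal muscle, skin, liver, heart and brain, tissues that express some of these genes, and of cartilage were followed over the same stages. From E12.5 to E18.5 all 14 tested skeletal muscle markers rose (median 4.17), as did 10 of 11 markers of skin and its glands (3.54), 9 of 10 of liver (3.05), 3 of 10 of heart (0.86), 2 of 9 of brain (0.05) and 3 of 6 of cartilage (1.03), against 15.2% of all genes. Of these lists, brain and cartilage had 1 marker each that fell, against 6.44% of all genes. Summed over each list, muscle signals went from 12266 to 12654 at E12.5 to 201947 to 215753 at E18.5, and skin signals from 2439 to 2479 to 95430 to 97821. Liver signals went from 24399 to 25874 to 126809 to 128887, heart from 20978 to 21190 to 42373 to 42587, and brain from 5296 to 5419 to 5380 to 5974. The adipocyte list went from 9801 to 10090 to 85912 to 86879. No marker had a signal of exactly 0. The part of these tissues in the values of Cidea, Elovl3, Dio2, Ppargc1a and the shared effector genes was not tested.

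**Figure D4:**
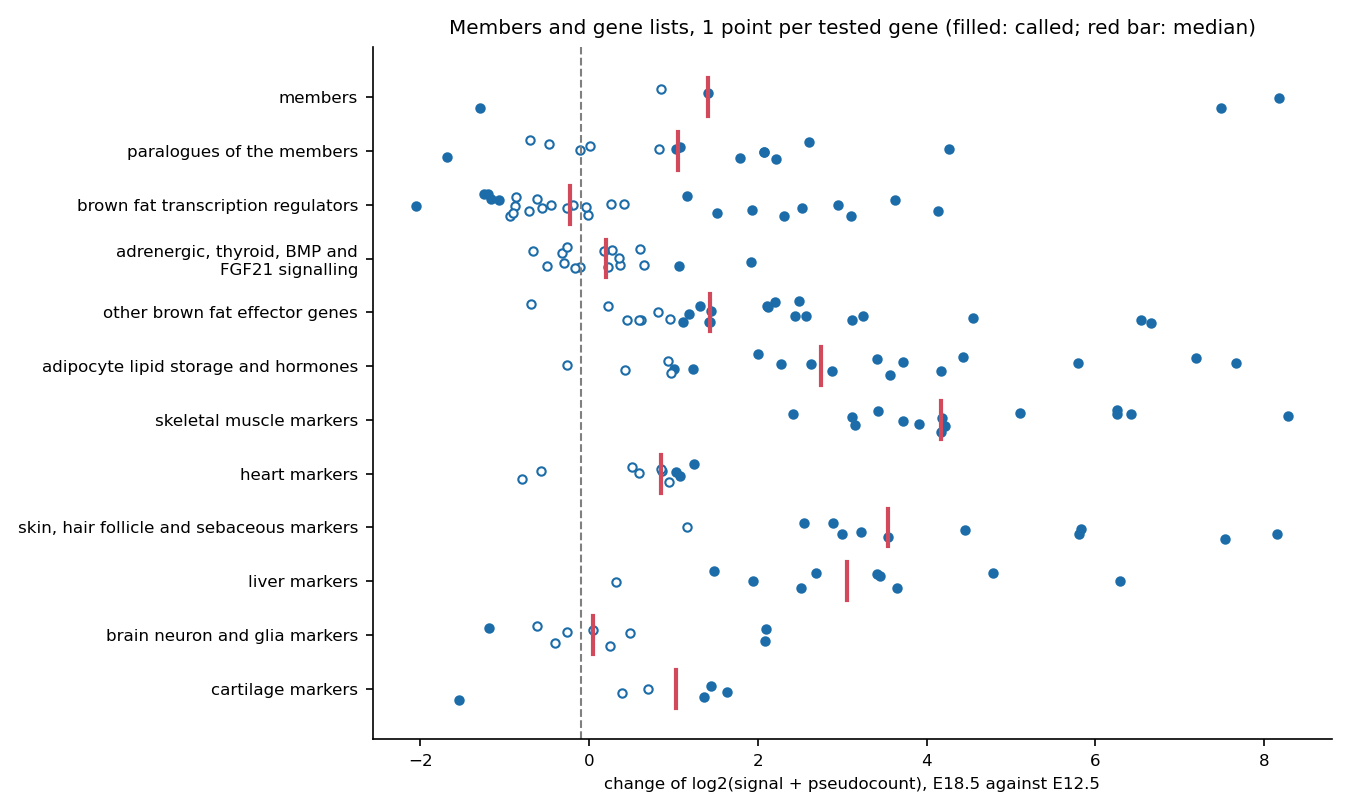
Change from E12.5 to E18.5 (log2 of signal + 25.9) of each tested gene of the 11 lists, with the red bar at each list's median and the dashed line at the median of all 14045 genes tested (-0.09). Adipocyte, muscle, skin and liver lists have medians between 2.75 and 4.17, and the signalling list lies near the dashed line at 0.20.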

How the data were processed

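Gene expression was measured on 20 arrays, 1 per pool of whole embryos. The deposited values are MAS5 intensity signals per probe set on a linear scale, per the submitters' processing notes and the labels. The MAS5 version is not given in the sources used here. In the deposited intensity values the trimmed mean is 500 on every array, as checked on the files.

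Of 45101 probe sets, 34958 had 1 gene symbol, 932 several and 9211 none. Of the single-gene ones, 34754 matched the RefSeq table by Entrez ID, which changed 0 symbols. A gene was represented by its probe set with the highest mean log2 value. Log2(signal + 25.9) was used, the pseudocount being the typical (median) 25th percentile of an array. All 20 arrays went into 1 limma fit with a mean per stage (limma 3.58.1 in R 4.3.3, eBayes with trend, 12 residual degrees of freedom, two-sided), so stages of 2 arrays share the estimate of spread. The filter left out 4149 genes. The script was tested on simulated data.

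Named were the 7 genes with all probe sets, their paralogues, up to 4 called genes of each list with the largest change from E12.5 to E18.5 (up to 2 from E7.5 to E10.5), and the 8 genes most correlated with Ucp1 in each set of arrays. That ranking left out the genes followed here, uncharacterised loci and genes represented by an _x_at probe set. The genes followed and the lists were chosen with earlier results of these data known. Alternatives varied the scaling, pseudocount, filter, fold minimum, choice of probe set, array set, replicate block and each array left out.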

Additional observations from a re-analysis of the deposited data

How the results depend on the processing

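Of 660 recomputed counts of called members, 629 stayed within 1.5 times of the reported one, and no called change reversed. Most reported counts of falls were 0, and each 0 that stayed 0 is among the 629, as is a 2 that became 3. Uncalled differences did change sign: leaving out 1 array, Ucp1 from E7.5 to E10.5 ran from -0.37 to 0.62 and the difference of the last 2 steps of Elovl3 from -0.15 to 1.61, and the last step of Prdm16 ran from -0.24 to 0.10 over the other alternatives. With the strict filter (75th percentile) 3 of the 5 were called over the stages, and leaving out 1 array gave 3 to 5. With a pseudocount 4 times larger, 0 rose from E7.5 to E8.5, 1 from E9.5 to E10.5, 0 fell from E10.5 to E12.5 and 2 had a larger last step than the step before. With a pseudocount 4 times smaller 2 rose from E7.5 to E10.5. With the mean of all probe sets, 0 rose from E7.5 to E8.5, 0 from E8.5 to E9.5, 1 from E9.5 to E10.5 and 2 from E7.5 to E10.5, and 0 fell from E12.5 to E18.5. With every probe set fitted, 1 rose from E10.5 to E12.5 and 2 from E7.5 to E10.5, and with no minimum fold 1 and 3. With only the 12 earlier arrays, 1 rose from E9.5 to E10.5, Cidea being above the median on 1 array there, and with only the later arrays 1 rose from E12.5 to E14.5. Leaving out 1 array gave 0 to 1 falls from E10.5 to E12.5, 0 to 1 rises from E12.5 to E14.5 (1 without E7.5 replicate 1 or E12.5 replicate 1), 1 to 3 over the last step, 1 to 4 from E12.5 to E18.5, 1 to 3 from E7.5 to E10.5 and 0 to 1 in the difference of the last 2 steps. Leaving out an array from a stage of 2 assumes that the other varies like the other stages. The last step of Ucp1 ran from 6.24 to 8.29 and that of Cidea from 3.59 to 4.13 over the other alternatives.

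Replicate numbers are shared between stages in the labels. Deviations of same-numbered arrays correlated at -0.0703 to 0.282 (median 0.0319) over 62 pairs, 13 of them over 0.1. Arrays of other numbers correlated at -0.209 to 0.0974 (median -0.00197) over 112 pairs, 0 of them over 0.1, and 14 of 20 arrays correlated best with their own number. These values are a hint of pairing from the data. The labels name no shared batch, and the main fit did not pair the samples by number. Whether the numbers mark a shared batch was not tested. With a replicate block the counts of members called were unchanged, at 5 over the stages, 3 risen and 1 fallen from E12.5 to E18.5, 1 risen from E7.5 to E10.5 and 2 over the last step (Ucp1 7.56, Cidea 3.76).

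Over all genes, counts from E12.5 to E18.5 ran from 1270 to 3370 risen and 578 to 4095 fallen, the upper ends with no minimum fold. From E7.5 to E10.5, 1402 to 4811 rose, and over the last step 231 to 1029, the lower end without E18.5 replicate 2. From E10.5 to E12.5, 1484 rose and 284 fell as reported, 770 and 563 after quantile normalization and 936 and 885 after scaling by the 75th percentile. Signals under the array median, which include Ucp1 through E16.5 and nearly all Dio2 values, set only an upper limit on a level.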

Other observations

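The probe set that lists Cpt1b, the muscle form of carnitine palmitoyltransferase, lists Chkb and Gm44502 too, so its signal belongs to no single gene. It read 41.3 to 107 on the 12 arrays up to E10.5, and 110 and 92.3 at E12.5. At E14.5 it read 113 and 62.6, at E16.5 it read 266 and 175, and at E18.5 it read 1135 and 1165. Both E18.5 arrays were above all others, and E16.5 lay above every earlier array. Which of the 3 genes carries this signal was not tested.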
